A study of Mus musculus with 15 samples.

Results

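Day 6 embryoid bodies grown under dTAG-13 were compared with the stem cells that the same line gives without treatment, to describe which steps of exit from naive pluripotency and of lineage onset were still seen. The comparison uses 6 of the 15 RNA-seq libraries of the series, 3 per group, taken by their labels for genotype, treatment and stage. Both groups are E14 mouse embryonic stem cells (mESCs) or their progeny with the same knock-in, NSD1-dTAG, a degron tag on NSD1, which deposits methyl groups on lysine 36 of histone H3. The nontreated NSD1-dTAG mESCs grew on gelatin in 2i/LIF medium, in which GSK3 and MEK are inhibited and the cytokine LIF is supplied. The dTAG-13 NSD1-dTAG embryoid bodies (EBs) grew in suspension for 6 days in GMEM medium with serum and with 500 nM dTAG-13 throughout. A further group, nontreated NSD1-dTAG EBs grown for 6 days without the compound (3 libraries), serves to place the treated EBs. dTAG-13 is a bifunctional compound that brings a dTAG-tagged protein to the cereblon ubiquitin ligase for degradation. NSD1 protein was not measured in these data. Not analysed here were EBs of the wild-type line and tagged mESCs given the compound, so an effect of the compound in EBs that does not pass through the tag cannot be told apart from one that does. The labels do not say whether the line is 1 clone.

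Mouse stem cells in 2i/LIF resemble the naive epiblast of the blastocyst and express Klf4, Esrrb, Zfp42 and other naive genes. On release from the inhibitors they shut these genes down and turn on a formative program with Otx2, Fgf5 and the de novo DNA methyltransferases. Wnt, Nodal and BMP signals then induce the primitive streak, with T and Eomes, from which mesoderm and definitive endoderm form, while the outer layer of an embryoid body turns into extraembryonic endoderm.

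Gene counts summed to 24562484 to 29103958 per library in the 9 libraries of the 3 groups. Within each group 1 library had a higher share of ribosomal protein transcripts than the other 2: 8.72% in mESC library 1 against 5.35% and 5.15%, 6.91% in nontreated EB library 3 against 5.82% and 5.49%, and 7.19% in dTAG-13 EB library 3 against 5.51% and 5.31%. Both EB libraries numbered 3 also had the lowest share of mitochondrial counts of their group, at 0.199% and 0.237%, where the other EB libraries had 0.425% to 1.11% and the mESC libraries 1.83% to 2.04%. ERCC spike-in counts were 0.292% to 0.496% in the mESC libraries and 0 in the EB libraries. Nsd1 (ENSMUSG00000021488.8, GRCm38 chr13:55209782-55318325, plus strand) was transcribed at 184, 371 and 363 CPM (counts scaled to the library total with TMM factors) in mESC libraries 1, 2 and 3, at 251, 231 and 204 CPM in nontreated EBs and at 312, 290 and 222 CPM in dTAG-13 EBs. Its transcript was not called between dTAG-13 EBs and mESCs (log2 fold change -0.13, adjusted p = 0.697), and without mESC library 1 it was lower in EBs (adjusted p = 0.0449). These counts do not check the protein. Levels are given in CPM in the order of libraries 1, 2 and 3, on 1 scale for the 9 libraries.

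dTAG-13 EBs differed from mESCs over most of the transcriptome. By edgeR's quasi-likelihood test with Benjamini-Hochberg adjustment, 9314 of 15145 genes tested (61.5%) were called at an adjusted p below 0.05, of which 5204 (34.4%) were higher and 4110 (27.1%) lower in the EBs, with a median log2 fold change of 0.01 over all genes. In nontreated EBs against the same mESCs, 9037 of 15193 genes (59.5%) were called, 33.1% higher and 26.3% lower. These 2 comparisons share the mESC libraries, so their values are set side by side here and no likeness is read from them. The test between the 2 kinds of EB is direct: 1030 of 15236 genes (6.76%) were called, 606 (3.98%) higher and 424 (2.78%) lower under dTAG-13, with a median of -0.01, and 21.7% had an unadjusted p below 0.05. With the replicate block, which treats same-numbered libraries of the 2 EB groups as pairs, 1834 genes were called, 1046 higher and 788 lower. Whether the numbers pair these libraries is not known. Medium, time in culture and dTAG-13 all differ between dTAG-13 EBs and mESCs, as do the spike-in counts, which were 0 in the EB libraries alone, and the parts of these and of any difference in library handling cannot be told apart. In bulk RNA, fewer cells of a type and less RNA per cell cannot be told apart either.

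**Figure D1:**
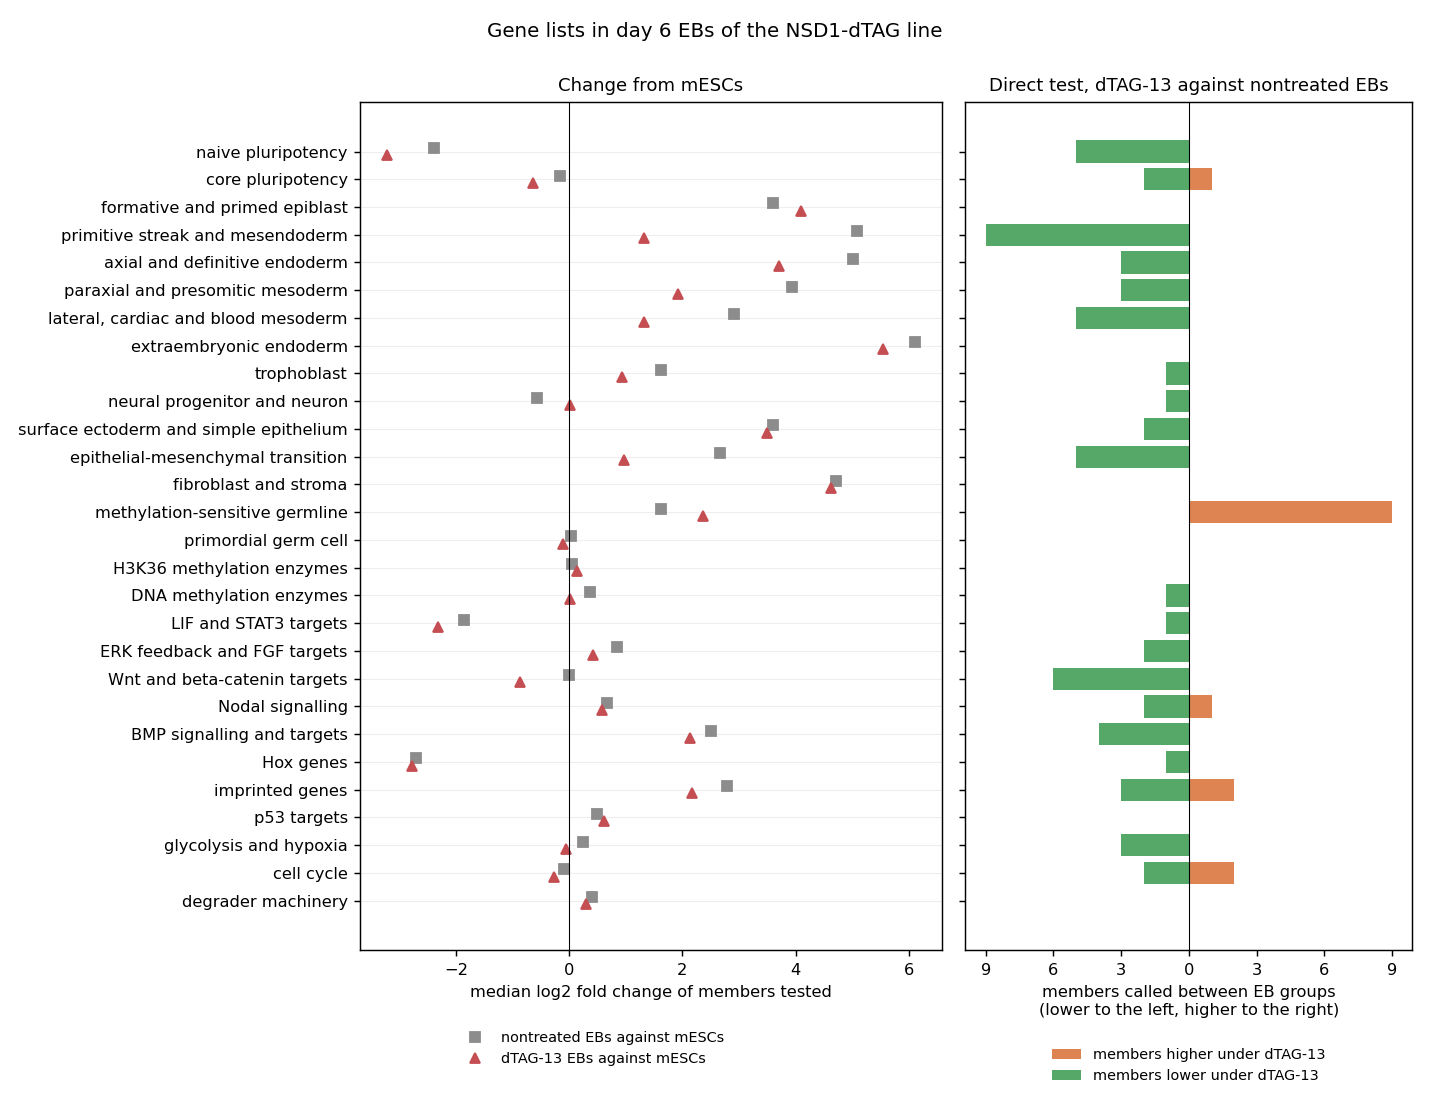
Gene lists in EBs and stem cells of the NSD1-dTAG line. Left, the median log2 fold change of the members tested in dTAG-13 EBs (triangles) and nontreated EBs (squares), each against nontreated mESCs. Right, the number of members called higher or lower in dTAG-13 EBs against nontreated EBs. Naive genes have medians of -3.22 and -2.38 and formative genes 4.10 and 3.60, while the primitive streak list has 1.33 in dTAG-13 EBs against 5.09 in nontreated EBs and 9 members lower in the direct test.

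Naive pluripotency genes were down in dTAG-13 EBs. Of 14 members, 13 fell and 1 rose, with a median log2 fold change of -3.22, and the same numbers, 13 and 1, held in nontreated EBs (median -2.38). Klf4 (ENSMUSG00000003032.8, chr4:55527143-55532466, minus strand), a transcription factor of the naive network, had 396, 401 and 400 CPM in mESCs, 18.3, 15.1 and 9.77 in nontreated EBs and 6.48, 6.09 and 6.83 in dTAG-13 EBs. The 3 groups did not overlap, and the fall from mESCs to dTAG-13 EBs was 60.5-fold (log2 -5.92, SE 0.12, adjusted p = 9.67e-08). Zfp42, a zinc finger gene also known as Rex1 and widely used as a naive reporter, went from 691, 554 and 553 CPM to 68.4, 52.8 and 44.1, with 136, 131 and 95.9 in nontreated EBs. Its log2 fold change from mESCs was -3.41 in dTAG-13 EBs and -2.27 in nontreated EBs. Esrrb, an orphan nuclear receptor that GSK3 inhibition keeps on, fell by 3.02 on the log2 scale, and Tfcp2l1, a LIF-responsive factor, by 4.81. Tbx3, another LIF-responsive factor, fell by 3.47 and stood at 18.8, 17.8 and 20.7 CPM in dTAG-13 EBs, inside the range of the nontreated EBs. The exception was Dppa3, also called Stella, a maternal factor of oocytes and germ cells, which rose from 11.2, 4.09 and 6.78 CPM to 17, 15.3 and 20 (log2 1.27, adjusted p = 0.00807).

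In the direct test 5 naive genes were lower in dTAG-13 EBs than in nontreated EBs and 0 were higher. They were Klf4 (log2 -1.16, adjusted p = 0.0234), Zfp42 (-1.14, adjusted p = 0.0155), Esrrb (-0.83, adjusted p = 0.0346), Nr0b1, a nuclear receptor that binds Oct4 (-1.09, adjusted p = 0.018), and Tcl1, a cofactor of AKT (-1.21, adjusted p = 0.0162). Tfcp2l1, at -0.77 (adjusted p = 0.102), joined them with the replicate block (-0.75, adjusted p = 0.0304). The number lower was 3, 2 and 5 without dTAG-13 EB library 1, 2 or 3 and 1, 0 and 6 without nontreated EB library 1, 2 or 3. It was 11 without the libraries of highest ribosomal share, a fit with 2 libraries per group. No single-library omission turned the direction of these 5 genes. For Klf4 the adjusted p reached 0.0907 without nontreated EB library 2. Klf2, a factor that MEK inhibition stabilises, had log2 -0.38 and Tbx3 -0.02, and neither was called.

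The core pluripotency genes moved less. Of 10 members, 3 rose, 5 fell and 2 were not called in dTAG-13 EBs against mESCs, with a median of -0.64. Pou5f1, which encodes Oct4, stood at 1374, 1084 and 1057 CPM in mESCs and at 592, 587 and 673 in dTAG-13 EBs, and Sox2, its partner factor, went from 739, 623 and 641 CPM to 378, 364 and 303. Their log2 fold changes from mESCs were -0.90 and -0.91 with dTAG-13 and -0.78 and -0.93 without, and the EB groups overlapped for both. Nanog, which stabilises the naive state, fell further in dTAG-13 EBs. It had 829, 637 and 672 CPM in mESCs, 322, 366 and 341 in nontreated EBs and 203, 231 and 185 in dTAG-13 EBs, with no overlap between any of the groups. The log2 fold change was -1.76 from mESCs and -0.74 between the EB groups (adjusted p = 0.0112, and at most 0.059 with any 1 library left out). Utf1 and Lin28a, a chromatin factor and an RNA-binding protein of pluripotent cells, rose by 1.68 and 0.54 on the log2 scale. Dppa4 rose by 0.69 in dTAG-13 EBs, was not called in nontreated EBs (0.16) and differed between the EB groups (0.53, adjusted p = 0.0208). In that test Tdgf1, a Nodal co-receptor, was lower (-0.78, adjusted p = 0.0468). Leaving out 1 library gave adjusted p values up to 0.108 for Dppa4 and 0.169 for Tdgf1, both without nontreated EB library 2.

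The formative and primed epiblast genes rose in dTAG-13 EBs, 12 of 12, with a median log2 fold change of 4.10, and 12 of 12 rose in nontreated EBs (median 3.60). Fgf5 (ENSMUSG00000029337.15, chr5:98254184-98277030, plus strand), a growth factor of the early postimplantation epiblast, had 1 count over the 3 mESC libraries and reached 138, 177 and 92.4 CPM in dTAG-13 EBs, a ratio of 10194 with a 95% counting interval of 1829 to 402669. Nontreated EBs had 189, 212 and 182 CPM. Otx2 (ENSMUSG00000021848.16, chr14:48657677-48673819, minus strand), a homeobox factor that opens formative enhancers, rose from 7.36, 7.26 and 6.3 CPM to 125, 133 and 98.3 in dTAG-13 EBs and to 130, 127 and 146 in nontreated EBs. Its log2 fold change from mESCs was 4.12 (SE 0.17, adjusted p = 5.5e-07) with the compound and 4.30 without, and the EB groups overlapped. Pou3f1, a POU factor of the primed epiblast and early neural plate, rose by 6.39 on the log2 scale, Sox3, a SoxB1 factor, by 4.30, and the de novo methyltransferase genes Dnmt3a and Dnmt3b by 4.08 and 3.37.

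Between the EB groups 0 of the 12 formative genes were called by edgeR, with a median of -0.02, while 5 had an unadjusted p below 0.05 and DESeq2 called 1 higher and 1 lower. Over all genes edgeR called 6.76% and 21.7% had an unadjusted p below 0.05, so 0 calls in so short a list do not show that it was unchanged. Dnmt3b had 665, 662 and 1229 CPM in nontreated EBs and 1288, 1447 and 953 in dTAG-13 EBs, and Dnmt3a had 117, 112 and 165 against 200, 205 and 142. In these 2 genes the EB libraries numbered 3 lay on the far side of their own groups. Without the libraries of highest ribosomal share 5 members were higher and 1 lower under dTAG-13, among them Dnmt3b (log2 1.04, adjusted p = 0.00028), Dnmt3a (0.82, adjusted p = 0.000301) and Pou3f1 (0.86, adjusted p = 0.00192). That fit keeps only libraries 1 and 2 of each EB group, which differ less from each other than from library 3. Its adjusted p values therefore rest on a smaller spread and are not stronger evidence. Leaving out nontreated EB library 3 alone gave 3 members higher, leaving out dTAG-13 EB library 3 alone gave 1 higher, and the replicate block gave 2 lower.

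**Figure D2:**
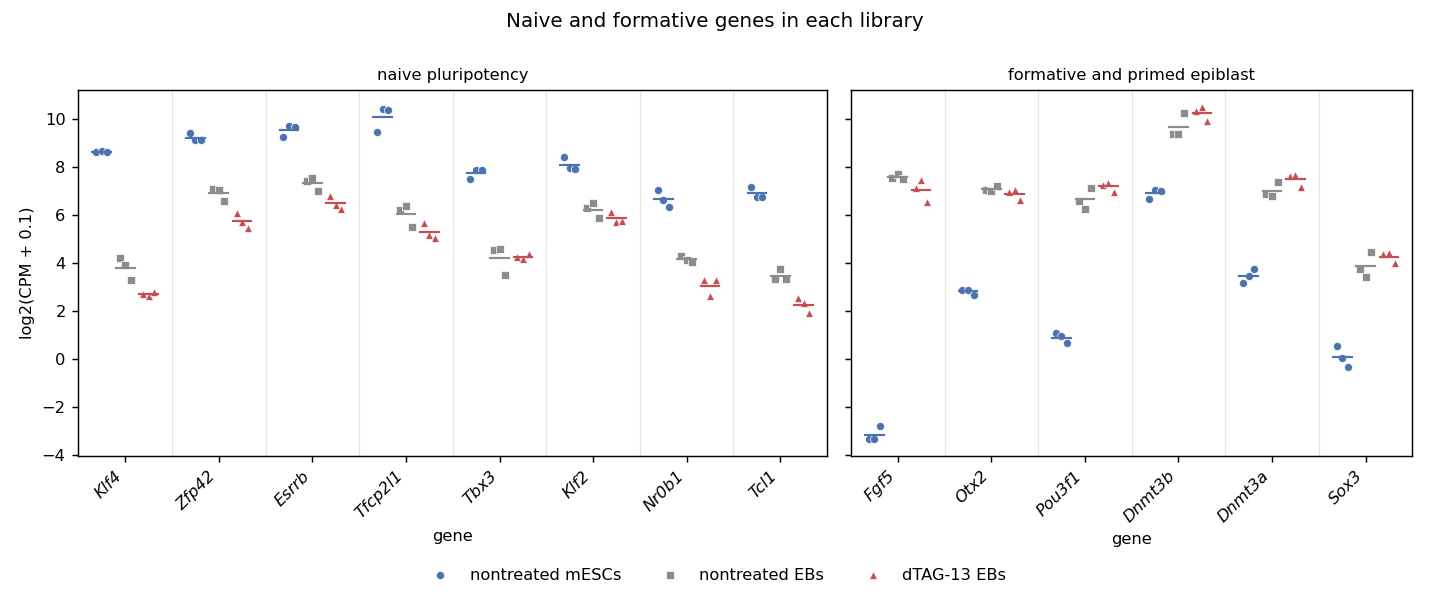
Naive and formative genes in each library of the NSD1-dTAG line. Points are libraries, 3 per group, as log2 of CPM plus 0.1, and bars are means of the log values, for nontreated mESCs (circles), nontreated EBs (squares) and dTAG-13 EBs (triangles). Klf4 runs from 396 to 401 CPM in mESCs down to 6.09 to 6.83 CPM in dTAG-13 EBs, and Otx2 from 6.3 to 7.36 CPM up to 98.3 to 133 CPM, with both EB groups on the same side of the mESCs for every gene shown.

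The primitive streak and mesendoderm genes parted from this pattern. Of 12 members 11 could be tested in dTAG-13 EBs against mESCs, where 6 rose, 2 fell (Sp5 and Fgf4, the latter outside the rule for named genes) and 3 were not called, with a median of 1.33. In nontreated EBs 10 rose and 1 fell, with a median of 5.09, and in the direct test 9 were lower under dTAG-13 and 0 higher, with a median of -3.25. T (ENSMUSG00000062327.10, chr17:8434423-8442496, plus strand), the T-box factor Brachyury that marks the streak and builds posterior mesoderm, is a Wnt-responsive gene. The 250 bases before its RefSeq start site, chr17:8434173-8434422 on the plus strand of GRCm38.p6, are shown because T is the gene of this list with the widest spread among the dTAG-13 EB libraries. Capitals mark the match to the core that TCF and LEF factors recognise, CTTTGA, which lies on the opposite strand 234 bases before the start site.
T: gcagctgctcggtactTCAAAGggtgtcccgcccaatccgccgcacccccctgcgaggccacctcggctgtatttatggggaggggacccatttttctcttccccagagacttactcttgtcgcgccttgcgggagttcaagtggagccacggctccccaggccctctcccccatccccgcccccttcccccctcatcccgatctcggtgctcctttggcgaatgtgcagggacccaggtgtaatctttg
T had 18.6, 17.4 and 18.5 CPM in mESCs, 228, 357 and 136 in nontreated EBs and 11, 32 and 0.261 in dTAG-13 EBs. The dTAG-13 EB libraries ran from below the mESCs to above them, and all 3 lay below all nontreated EBs. T was not called against mESCs (log2 -0.30, SE 0.94, adjusted p = 0.802) and rose in nontreated EBs (3.77, adjusted p = 3.15e-05). Between the EB groups the log2 difference was -4.06 with an adjusted p of 0.0526, which misses the threshold, and with the replicate block it was -4.60 with an adjusted p of 0.0132. It also passed without dTAG-13 EB library 3 (adjusted p = 0.0166).

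Other streak genes rose in dTAG-13 EBs but to lower levels than in nontreated EBs. Eomes (ENSMUSG00000032446.14, chr9:118478212-118486132, plus strand), a T-box factor for mesendoderm, rose from 15.6, 19.7 and 16.3 CPM to 34.5, 67.1 and 25.5, with 162, 246 and 122 in nontreated EBs. The 3 groups did not overlap, and the log2 fold change was 1.33 from mESCs (adjusted p = 0.00803) and -2.06 between the EB groups (adjusted p = 0.0208). Fgf8, an FGF that moves cells through the streak, reached 21.7, 33.9 and 10.8 CPM against 70.5, 88.5 and 46.4 in nontreated EBs, and Mixl1, a homeobox factor of mesendoderm, 5.29, 11.2 and 1.31 CPM against 46.2, 93 and 23.2. Wnt3, the ligand that starts the streak in the embryo, was at or below 0.0869 CPM in mESCs and had 3.96, 8.88 and 1.27 CPM in dTAG-13 EBs and 25.6, 32.1 and 18.9 in nontreated EBs. Lhx1, a LIM homeobox factor of the anterior streak, had 0 counts in mESCs and was at least 188-fold higher in dTAG-13 EBs and at least 2639-fold higher in nontreated EBs. In the direct test Fgf8, Mixl1, Wnt3 and Lhx1 had log2 differences of -1.63, -3.19, -2.44 and -3.79, all called. In each of Eomes, Fgf8, Mixl1 and Wnt3 the same order of libraries appeared, with library 2 highest and library 3 lowest in both EB groups.

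Evx1 and Gsc were not called against the stem cells, and Mesp1 was too low there to test. Evx1, a homeobox factor of the posterior streak, had 2.44, 2.51 and 1.83 CPM in mESCs, 16.9, 33.9 and 11.9 in nontreated EBs and 0.888, 1.59 and 0.187 in dTAG-13 EBs. It was not called against mESCs (log2 -1.30, adjusted p = 0.063) and was 23.3-fold lower than in nontreated EBs (log2 -4.54, SE 0.60, adjusted p = 0.0087). Its exons overlap those of Evx1os on the other strand, and reads of the 2 cannot be told apart here. Gsc, which marks the organiser, was at 1.04, 2.58 and 0.485 CPM against 15.2, 22.9 and 6.47 in nontreated EBs, and overlapped the mESCs at 0.968, 0.85 and 0.565. Mesp1, the factor of the first cardiac and head mesoderm, did not pass the count filter against mESCs, where it had 2 counts in all, and its ratio in dTAG-13 EBs was 11.4 (95% counting interval 2.84 to 99.2) where nontreated EBs gave 244 (67.3 to 2023). Of the 9 streak genes lower in the direct test, 1 stayed called without dTAG-13 EB library 1 and 1 without nontreated EB library 1 or 2. The count was 9 or 10 without any other single library, 10 without the libraries of highest ribosomal share and 10 with the replicate block. The largest adjusted p with 1 library left out was 0.0805 for Eomes and 0.162 for Fgf8, and the direction of all 9 held in all 6 fits. Evx1 was called in all 6.

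**Figure D3:**
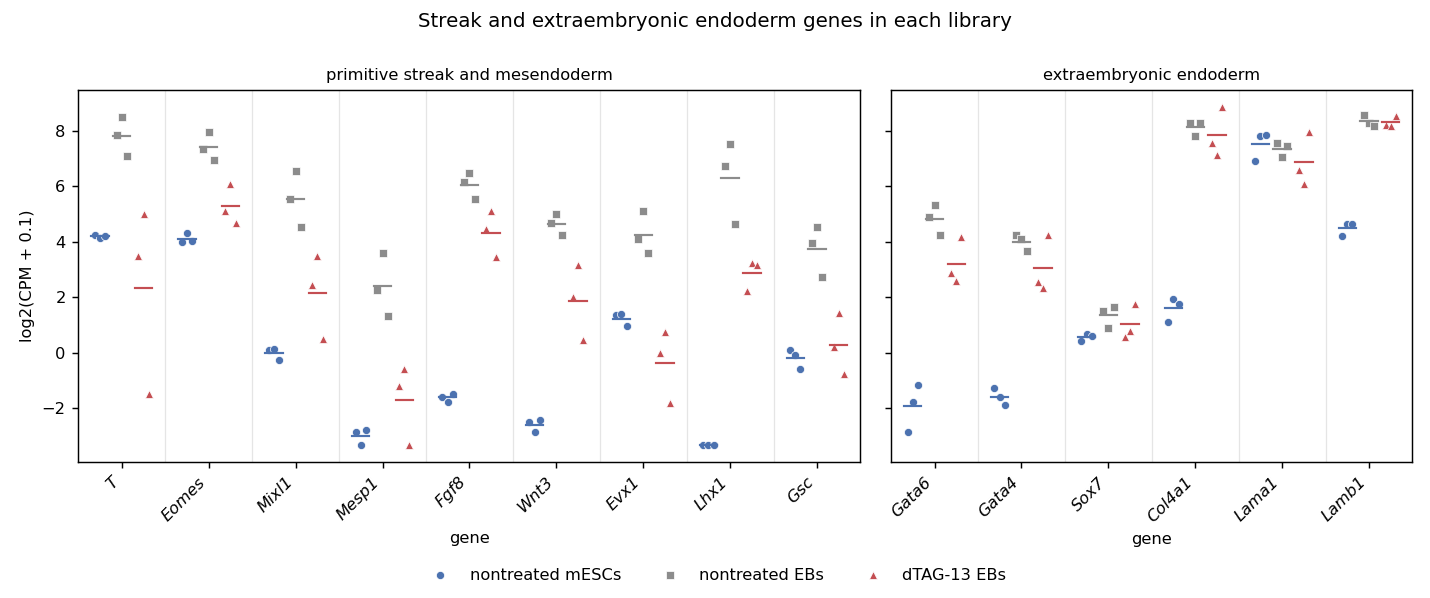
Primitive streak genes and extraembryonic endoderm genes in each library of the NSD1-dTAG line. Points are libraries, 3 per group, as log2 of CPM plus 0.1, and bars are means of the log values, for nontreated mESCs (circles), nontreated EBs (squares) and dTAG-13 EBs (triangles). T runs from 0.261 to 32 CPM in dTAG-13 EBs against 136 to 357 CPM in nontreated EBs, whereas Gata4 and Col4a1 overlap between the EB groups, with dTAG-13 EB library 3 highest at 19 and 458 CPM.

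Of 10 axial and definitive endoderm genes, 8 could be tested against mESCs and 5 rose, with 0 falls, while 7 rose in nontreated EBs. Foxa2, a forkhead factor of node and endoderm, was at or below 0.116 CPM in mESCs and at 4.03, 10.4 and 7.09 CPM in dTAG-13 EBs, against 41.2, 63.5 and 20.5 in nontreated EBs (direct test log2 -2.54, adjusted p = 0.0185). Sox17, an endoderm factor that extraembryonic endoderm also makes, had 4.33, 3.68 and 11.2 CPM against 21.9, 27.4 and 10.4, with overlapping groups (log2 -1.65, adjusted p = 0.081). Cer1, an antagonist of Nodal, Wnt and BMP, had 0 counts in mESCs and was at least 88.6-fold higher in dTAG-13 EBs and at least 1323-fold higher in nontreated EBs. Chrd, a BMP antagonist of the organiser, overlapped the mESCs in dTAG-13 EBs (2.85, 4.03 and 1.72 CPM against 2.83, 2.2 and 1.83) and rose in nontreated EBs. Noto, a notochord factor, and Shh were not tested for low counts; Noto had 0.788, 1.05 and 0.109 CPM in nontreated EBs and 0, 0.0354 and 0 in dTAG-13 EBs. In the direct test 3 members were lower, Foxa2, Cer1 and Chrd, and this count was 0 without dTAG-13 EB library 1 or nontreated EB library 1 or 2, 1 without dTAG-13 EB library 2, 6 without nontreated EB library 3 and 7 without the libraries of highest ribosomal share.

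Mesoderm genes beyond the streak were divided in the same test. Of 10 paraxial and presomitic genes, 6 were tested in dTAG-13 EBs against mESCs and all 6 rose, as did 7 of 7 in nontreated EBs. Dll1, a Notch ligand of the presomitic mesoderm and of neurogenic cells, rose from at most 0.116 CPM to 12.8, 11.2 and 14.5, while nontreated EBs had 6.8, 12.7 and 4.65, and the EB groups overlapped. Tbx6, which commits cells to paraxial mesoderm, reached 1.22, 1.17 and 0.448 CPM and overlapped the nontreated EBs at 1.47, 1.56 and 0.654. Msgn1, a bHLH factor of presomitic mesoderm, had 0 counts in mESCs, 0.111, 0 and 0.0373 CPM in dTAG-13 EBs and 1.36, 3.32 and 0.4 in nontreated EBs. In the direct test Msgn1, Mesp2 and Foxc1 were lower (log2 -5.0, -2.23 and -3.05) and Dll1 and Tbx6 were not called (0.66 and -0.38). The count of 3 was 0 without dTAG-13 EB library 1 or 2 or nontreated EB library 1 or 2, 1 without dTAG-13 EB library 3, and 4 without nontreated EB library 3, without the libraries of highest ribosomal share or with the replicate block.

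Of 14 lateral, cardiac and blood mesoderm genes, 8 were tested against mESCs in dTAG-13 EBs, where 5 rose and 1 fell. Hand1, a bHLH factor of lateral mesoderm and trophoblast, had 2 counts in mESCs, 1.22, 0.602 and 0.821 CPM in dTAG-13 EBs and 10.7, 6.16 and 1.53 in nontreated EBs. Kdr, the VEGF receptor Flk1 of blood and vessel precursors, stayed in the mESC range in dTAG-13 EBs at 3.7, 3.43 and 3.62 CPM, while nontreated EBs had 20.2, 30.4 and 3.49. Nontreated EB library 3 alone was as low as the treated ones, and without it Kdr was called in the direct test (adjusted p = 0.00169, 0.0701 with it). Etv2, the master factor of blood and endothelium, overlapped between EB groups at 3.48, 3.33 and 2.39 against 2.26, 3.15 and 2.98 CPM. Isl1, of cardiac progenitors, was at most 0.148 CPM in dTAG-13 EBs and 2.15, 4.64 and 0.945 in nontreated EBs (log2 -4.51, adjusted p = 0.0137). In the direct test 5 members were lower, Hand1, Isl1, Lmo2, Cdh5 and Bmp4. The count was 1 to 4 without a dTAG-13 EB library, 2 without nontreated EB library 1 or 2, 6 without nontreated EB library 3, and 7 without the libraries of highest ribosomal share. Hbb-bh1, an embryonic globin gene outside the rule for named genes and added after its values were seen, had 0 counts in all 9 libraries.

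The extraembryonic endoderm genes rose in dTAG-13 EBs, 13 of 16 with 0 falls and a median log2 fold change of 5.55, against 14 of 16 and 6.11 in nontreated EBs. Gata6, the factor that sets primitive endoderm fate, was at most 0.348 CPM in mESCs and had 7.18, 5.84 and 17.7 CPM in dTAG-13 EBs and 29.2, 40 and 18.6 in nontreated EBs. Gata4, its partner, reached 5.7, 4.88 and 19 CPM against 18.7, 17.1 and 12.6, and Col4a1, a basement membrane collagen whose exons overlap Col4a2, 190, 140 and 458 CPM against 310, 222 and 313. Library 3 was the highest of the dTAG-13 EBs for all 3 genes and, for Gata4 and Col4a1, exceeded every nontreated EB library. Lamb1, a laminin chain, rose from 18.4, 24.7 and 24.6 CPM to 295, 288 and 365 (log2 3.83, adjusted p = 8.15e-07). Sox7 and Lama1 were not called (log2 0.61 and -0.46), and without dTAG-13 EB library 3 Lama1 was lower than in mESCs (adjusted p = 0.0144). The summed level of the 16 genes was 1052, 897 and 2227 CPM in dTAG-13 EBs, 1657, 1248 and 1672 in nontreated EBs and 411 to 540 in mESCs.

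Between the EB groups 0 of these 16 genes were called by edgeR or by DESeq2, with a median of -0.21, and 2 had an unadjusted p below 0.05 in edgeR. In edgeR those shares over all genes were 6.76% and 21.7%, so 0 calls in so short a list do not show that it was unchanged. Without a filter on low counts edgeR called 2 of the 16 lower, and in 1 fit over the 9 libraries 1. Without dTAG-13 EB library 3, 5 were lower under dTAG-13, among them Gata4 (adjusted p = 0.00946) and Gata6 (adjusted p = 0.0129), and without nontreated EB library 3 there was 1. Without the libraries of highest ribosomal share, 9 were lower, with Gata6 at log2 -2.42 (adjusted p = 0.000318), Gata4 at -1.76 (adjusted p = 0.000318) and Col4a1 at -0.70 (adjusted p = 0.0313). That fit again has 2 libraries per group and a smaller spread. The replicate block called 0, and so did the fits without library 1 or 2 of either EB group. The rise from mESCs did not depend on that library: 13 members rose without dTAG-13 EB library 3 as well.

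Of the trophoblast genes, 9 of 11 were tested against mESCs, where 7 rose and 2 fell. One of the falls was Cdx2 (ENSMUSG00000029646.3, chr5:147300805-147307270, minus strand), a caudal homeobox factor of trophectoderm and of the posterior streak. It had 5.69, 3.32 and 4.87 CPM in mESCs and 8.34, 11.2 and 4.76 in nontreated EBs, which overlapped, and 0.148, 0.283 and 0.373 in dTAG-13 EBs, below every other library. Its log2 fold change was -4.06 (SE 0.35, adjusted p = 2.32e-05) from mESCs and -4.90 (SE 0.43, adjusted p = 0.0031) between the EB groups, and it was called in all 6 fits that left out 1 library. Krt7, a simple-epithelium keratin, rose by 6.80 on the log2 scale from mESCs. Elf5, a factor of trophoblast stem cells, had at most 1 count over the mESC and the dTAG-13 EB libraries.

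Epithelial and mesenchymal genes went both ways. Of 8 surface ectoderm and simple epithelium genes tested, 5 rose and 3 fell in dTAG-13 EBs against mESCs. Krt8 and Krt18, a keratin pair, had 159, 150 and 289 and 186, 174 and 282 CPM in dTAG-13 EBs from at most 21.8 and 4.69 CPM in mESCs, and Cldn6, a tight junction gene, rose by 7.36 and Epcam, an epithelial adhesion gene, by 3.38 on the log2 scale. Wnt6, a Wnt ligand, went in opposite directions in the EB groups: 1.12, 0.927 and 0.913 CPM in mESCs, 2.79, 4.09 and 1.16 in nontreated EBs and 0.37, 0.212 and 0.149 in dTAG-13 EBs (log2 1.48 and -1.97 from mESCs, -3.44 between EBs, adjusted p = 0.014). Among 11 genes of epithelial-mesenchymal transition 7 rose and 3 fell against mESCs. Cdh1, which encodes E-cadherin, rose from 380, 438 and 450 CPM to 709, 745 and 747, and in nontreated EBs was at 616, 435 and 551 and not called. Cdh2, which encodes N-cadherin and comes on in streak mesoderm, rose to 23.7, 27.8 and 26.5 CPM against 80, 145 and 47.6 in nontreated EBs.

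Of the 11 transition genes, 5 were lower in the direct test and 0 higher. Vim, the intermediate filament of mesenchyme, had 57.9, 69 and 77 CPM in dTAG-13 EBs, 229, 287 and 141 in nontreated EBs and 516, 430 and 393 in mESCs, with no overlap (log2 -2.69 from mESCs and -1.69 between EBs, adjusted p = 0.0106). Twist1, a bHLH factor of mesenchyme, was at 3.29, 4.49 and 3.36 CPM against 13, 17.8 and 10.5 (log2 -1.89, adjusted p = 0.00683). Snai1, a repressor of E-cadherin, was lower by 1.77, Cdh2 by 1.81 and Zeb1, another such repressor, by 1.56 on the log2 scale. Vim and Twist1 kept their calls with any 1 library left out, and the list count was then 2, 2 and 3 without dTAG-13 EB library 1, 2 or 3 and 2, 3 and 6 without nontreated EB library 1, 2 or 3. Cdh1 was higher with the replicate block (adjusted p = 0.0476, 0.0871 without it).

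Most neural genes were too low to test. Of 12 neural progenitor and neuron genes, 5 were tested, of which 2 rose and 2 fell against mESCs. Nes, which encodes the intermediate filament nestin, went from 3.48, 3.63 and 3.87 CPM to 209, 253 and 184, and nontreated EBs overlapped these values. Pax6, a paired-box factor of neural and eye progenitors, rose to 2.52, 2.02 and 2.28 CPM from at most 0.31, and nontreated EBs had 6.66, 5.62 and 6.18. Pax6 was lower in the direct test (log2 -1.44, SE 0.17, adjusted p = 0.00628) and was called in all 6 fits that left out 1 library. Sox1, a SoxB1 factor of the neural plate, was not called at 2.52, 3.86 and 2.84 CPM against 2.56, 3.51 and 3.22 in mESCs. Of 8 fibroblast and stroma genes 5 were tested and 4 rose, with Col1a1 at 3.18, 2.09 and 3.81 CPM and 0 counts for Lum in dTAG-13 EBs.

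Genes of the signals that pattern the streak went both ways from mESCs in each pathway. Of 10 Wnt and beta-catenin targets tested, 4 rose and 5 fell in dTAG-13 EBs against mESCs. The mESC medium contains a GSK3 inhibitor, which turns this pathway on, and its part in these changes was not tested. Sp5 (ENSMUSG00000075304.4, chr2:70474923-70477729, plus strand) is an SP-family factor and a direct Wnt target. The 250 bases before its RefSeq start site, chr2:70474673-70474922 on the plus strand of GRCm38.p6, are shown because Sp5 had the steepest fall from mESCs among the streak genes; capitals mark 2 matches to CTTTGA, 204 and 104 bases before the start site.
Sp5: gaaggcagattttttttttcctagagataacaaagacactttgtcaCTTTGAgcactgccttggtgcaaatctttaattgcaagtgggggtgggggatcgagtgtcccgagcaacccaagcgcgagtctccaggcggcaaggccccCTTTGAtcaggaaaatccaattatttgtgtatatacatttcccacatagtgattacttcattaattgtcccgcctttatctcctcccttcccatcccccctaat
Searched on both strands in windows of 250 bases before to 50 after the start site, CTTTGA was found in 16% of the 32851 RefSeq promoters, in 3 of the 9 promoters of the streak list (33.3%) and in 2 of the 11 promoters of the Wnt list. The T-box core TCACAC was found in 14.5% of all these promoters and in 2 of the 9 of the streak list (22.2%). Sp5 belongs to both the streak and the Wnt list. A match is a description of the letters and not a site of binding. Sp5 had 87.5, 73.7 and 79.7 CPM in mESCs, 67.2, 103 and 44.9 in nontreated EBs and 5.81, 15.1 and 0.709 in dTAG-13 EBs. Nontreated EBs overlapped the mESCs, and dTAG-13 EBs lay below both (log2 -3.44 from mESCs, adjusted p = 0.00429, and -3.31 between EBs, adjusted p = 0.0409).

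Axin2, a feedback inhibitor of Wnt signalling, had 101, 138 and 142 CPM in mESCs, 46.3, 55.2 and 42.3 in nontreated EBs and 18, 23.9 and 13.4 in dTAG-13 EBs, and the 3 groups did not overlap (direct test log2 -1.38, adjusted p = 0.0116). Notum, a secreted Wnt deacylase, fell by 5.90 from mESCs and was lower by 1.23 between the EB groups, and Nkd1, a further feedback inhibitor, rose by 1.48 from mESCs and was lower by 1.10. Lef1 and Tcf7, which encode the TCF and LEF factors themselves, rose from mESCs by 1.45 and 0.45 and were not called between EBs (-0.59 and -0.14). Cdx1, the caudal paralogue of Cdx2, fell from 37.4, 23.3 and 24.9 CPM to 0.148, 0.142 and 0.187, and Lgr5, a receptor of R-spondins, was at 0.407, 1.2 and 0.336 against 10.8, 13.5 and 3.05 in nontreated EBs. In the direct test 6 of 11 Wnt targets were lower and 0 higher: Axin2, Sp5, Nkd1, Notum, Lgr5 and Cdx1. The count was 0, 4 and 7 without dTAG-13 EB library 1, 2 or 3, 2, 1 and 5 without nontreated EB library 1, 2 or 3, and 7 with the replicate block. The largest adjusted p with 1 library left out was 0.0546 for Axin2 and 0.139 for Sp5, and no direction turned.

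Nodal pathway genes were present in dTAG-13 EBs. Nodal itself, the TGF-beta ligand of epiblast and streak, had 60.5, 53.3 and 48.5 CPM in mESCs, 79.4, 83.4 and 79.8 in nontreated EBs and 60.4, 69.5 and 54.2 in dTAG-13 EBs. It rose from mESCs in nontreated EBs (log2 0.61) and was not called in dTAG-13 EBs (0.21), and the EB groups did not overlap (-0.40, adjusted p = 0.0641, or -0.41 and 0.0247 with the replicate block). Lefty1 (ENSMUSG00000038793.13, chr1:180935022-180938400, plus strand), a secreted Nodal antagonist, moved the other way. It had 52.7, 34.1 and 37.6 CPM in mESCs, 108, 95.3 and 92.6 in nontreated EBs and 276, 247 and 205 in dTAG-13 EBs, with no overlap. The log2 fold change was 2.58 (adjusted p = 1.13e-05) from mESCs and 1.29 (SE 0.13, adjusted p = 0.00391) between EBs, and the latter call held with any 1 library left out. Lefty2, the neighbouring paralogue, fell by 1.59 from mESCs and was not called between the EB groups (-0.25).

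Among BMP pathway genes, 5 rose and 4 fell of 9 against mESCs. Bmp4 (ENSMUSG00000021835.15, chr14:46383520-46390669, minus strand), a ligand that induces posterior mesoderm and germ cells, had 30.2, 30.8 and 28.7 CPM in mESCs, 10.4, 11.4 and 5.78 in nontreated EBs and 1.48, 1.63 and 1.64 in dTAG-13 EBs. The groups did not overlap, and the log2 fold change was -4.21 from mESCs and -2.54 between EBs (SE 0.27, adjusted p = 0.00502), a call kept with any 1 library left out. Msx1, a homeobox target of BMP, reached 2.63, 3.93 and 1.42 CPM against 16.1, 25.6 and 8.43 in nontreated EBs (log2 -2.65, adjusted p = 0.018). Id1 and Id2, inhibitors of bHLH factors, rose by 2.76 and 3.02 from mESCs and were not called between EBs, whereas Id3 fell by 1.75 and was lower by 0.74 between EBs. Smad6, an inhibitory SMAD, was called in opposite directions from mESCs, -0.61 in dTAG-13 EBs and 0.68 in nontreated EBs, with a direct difference of -1.29 (adjusted p = 0.0255). In all, 4 of the 9 were lower in the direct test and 0 higher, and the number lower was 1, 3 and 5 without dTAG-13 EB library 1, 2 or 3 and 1, 1 and 6 without nontreated EB library 1, 2 or 3.

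Most LIF targets fell in dTAG-13 EBs. Of 9 LIF and STAT3 targets 6 fell and 1 rose with dTAG-13 and 7 fell and 2 rose without. Socs3, the feedback inhibitor of STAT3, went from 139, 141 and 138 CPM to 6.85, 8.07 and 7.76, and Stat3 and Lifr, the factor and the LIF receptor, fell by 2.32 and 2.45 on the log2 scale. Of 12 ERK feedback and FGF targets 5 rose and 2 fell with dTAG-13, where 34.4% and 27.1% of all genes did, and 7 rose and 1 fell without. Dusp6, an ERK phosphatase, rose from 57.4, 58 and 52.2 CPM to 185, 208 and 199 and was higher still in nontreated EBs at 257, 263 and 250 (direct test log2 -0.39, adjusted p = 0.034, and at most 0.157 with 1 library left out, that value without dTAG-13 EB library 1). Egr1, an immediate early factor, rose by 2.01 and Spry2, an FGF antagonist, by 0.80, and neither was called between EBs, but Spry2 was lower with the replicate block (log2 -0.37, adjusted p = 0.025), as was Lifr (-0.57, adjusted p = 0.0171). Ier3, an early response gene, was lower in the direct test (log2 -0.76, adjusted p = 0.0163).

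**Figure D4:**
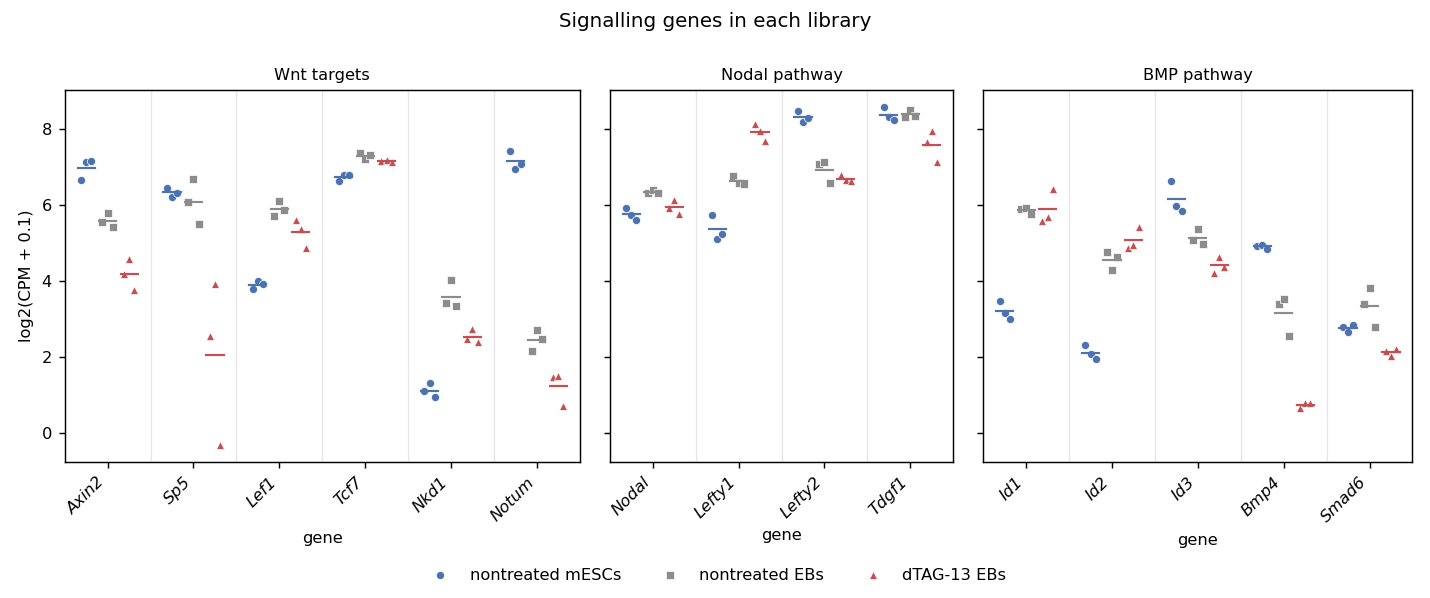
Targets and ligands of Wnt, Nodal and BMP signalling in each library of the NSD1-dTAG line. Points are libraries, 3 per group, as log2 of CPM plus 0.1, and bars are means of the log values, for nontreated mESCs (circles), nontreated EBs (squares) and dTAG-13 EBs (triangles). Axin2 and Bmp4 step down from mESCs over nontreated EBs to dTAG-13 EBs, Bmp4 from 28.7 to 30.8 CPM to 1.48 to 1.64 CPM, while Lefty1 steps up from 34.1 to 52.7 CPM to 205 to 276 CPM.

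Methylation-sensitive germline genes, whose CpG-rich promoters are silenced by DNA methylation in the epiblast, rose in dTAG-13 EBs. Of 15 members, 13 were tested against mESCs, where 12 rose and 1 fell, with a median log2 fold change of 2.36. In nontreated EBs 8 rose and 2 fell (median 1.62), and in the direct test 9 of 13 were higher under dTAG-13 and 0 lower (median 1.21). Sycp3 (ENSMUSG00000020059.15, chr10:88459569-88473236, plus strand) encodes a protein of the synaptonemal complex of meiotic chromosomes, and Ddx4 (chr13:112598333-112652475, minus strand) the germ cell RNA helicase VASA. The 250 bases before their RefSeq start sites, chr10:88459337-88459586 on the plus strand and chr13:112652311-112652560 on the minus strand of GRCm38.p6, are shown because these genes carry the most counts among those that differed. Capitals mark the E-box CACGTG, which reads the same on both strands and holds a CpG, 64 and 43 bases before the start site of Sycp3 and 29 bases before that of Ddx4.
Sycp3: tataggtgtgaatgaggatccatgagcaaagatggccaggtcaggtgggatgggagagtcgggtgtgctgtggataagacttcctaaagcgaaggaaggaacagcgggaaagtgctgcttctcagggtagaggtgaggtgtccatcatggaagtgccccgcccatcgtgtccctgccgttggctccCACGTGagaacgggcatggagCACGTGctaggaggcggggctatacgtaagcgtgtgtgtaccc
Ddx4: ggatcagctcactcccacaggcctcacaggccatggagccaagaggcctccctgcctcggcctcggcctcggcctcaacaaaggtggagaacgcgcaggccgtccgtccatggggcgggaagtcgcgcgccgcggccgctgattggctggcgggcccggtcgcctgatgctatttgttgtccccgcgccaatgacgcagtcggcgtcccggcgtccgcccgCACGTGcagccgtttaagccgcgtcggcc
In windows of 250 bases before to 50 after the start site, CACGTG was found in 10 of 16 promoters of this list (62.5%), belonging to 8 of 14 genes matched, in 0 of 9 of the streak list and in 7.15% of the 32851 RefSeq promoters. Of the genes higher in the direct test, Sycp3, Ddx4, Hormad1, Stk31, Taf7l and Slc25a31 had a match, and Dazl and Sohlh2 had 0. Mael, not called in that test, had 1. A match does not show binding, and DNA methylation was not measured in these data. Sycp3 had 4.14, 3.01 and 2.95 CPM in mESCs, 42.8, 30.1 and 48.6 in nontreated EBs and 146, 152 and 188 in dTAG-13 EBs. The groups did not overlap, and dTAG-13 EBs were 48.9-fold above mESCs (log2 5.61, adjusted p = 3.08e-07) and 3.98-fold above nontreated EBs (log2 1.99, SE 0.18, adjusted p = 0.00311). Its exons overlap those of Chpt1 on the other strand.

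Ddx4 had 4.03, 5.02 and 3.69 CPM in mESCs, 18.1, 11.2 and 16.3 in nontreated EBs and 35.2, 35.7 and 43.6 in dTAG-13 EBs (direct test log2 1.32, adjusted p = 0.00991). Dazl, an RNA-binding protein of germ cells, had 3.48, 2.59 and 2.48, then 4.33, 3.72 and 3.27, and 9.25, 8.42 and 8.74 CPM in the same order. For Dazl the mESCs and nontreated EBs overlapped and the dTAG-13 EBs stood apart from both. Stk31, a testis kinase-like gene, and Hormad1, a meiotic axis gene, likewise rose from mESCs in dTAG-13 EBs (both 0.92 on the log2 scale) and were not called in nontreated EBs (-0.16 and -0.15). Sohlh2, a bHLH factor of germ cells, fell in nontreated EBs (log2 -0.58) and rose in dTAG-13 EBs (0.78), from 10.3 CPM in each mESC library to 6.84, 5.35 and 7.99 without and 15, 15.9 and 21 with the compound. Piwil2, of the piRNA pathway, and Taf7l, a TFIID subunit of germ cells, were higher by 1.35 and 1.85 in the direct test, and Slc25a31, a testis ADP/ATP carrier, by 1.31 (adjusted p = 0.0499).

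The count of 9 higher in the direct test was 6, 8 and 8 without dTAG-13 EB library 1, 2 or 3, 7, 6 and 8 without nontreated EB library 1, 2 or 3, and 9 with the replicate block or without the libraries of highest ribosomal share. Sycp3, Ddx4, Dazl, Stk31, Taf7l and Sohlh2 were called in all 6 fits that left out 1 library. Mael, a piRNA pathway gene, rose from mESCs in both EB groups and overlapped between them (0.46, adjusted p = 0.266). Of 8 primordial germ cell genes, 3 rose and 3 fell from mESCs in each EB group. Of all genes tested, 34.4% rose and 27.1% fell in dTAG-13 EBs. Between EBs, where edgeR called 6.76% of all genes, it called 0 of the 8, 3 had an unadjusted p below 0.05 and DESeq2 called 2 lower. The replicate block called 3 of them lower, among them Tfap2c (log2 -0.79, adjusted p = 0.0132). Prdm1, the factor that founds the germ line, was not called at 39.5, 29.3 and 26.1 CPM against 24.9, 29.6 and 29 in mESCs, nor was Nanos3, a translational repressor of germ cells, at 1.22, 1.56 and 0.896 CPM. Tfap2c, an AP-2 factor of germ cells and trophoblast, rose by 0.79, and Kit, the receptor of migrating germ cells, fell by 3.05 on the log2 scale.

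**Figure D5:**
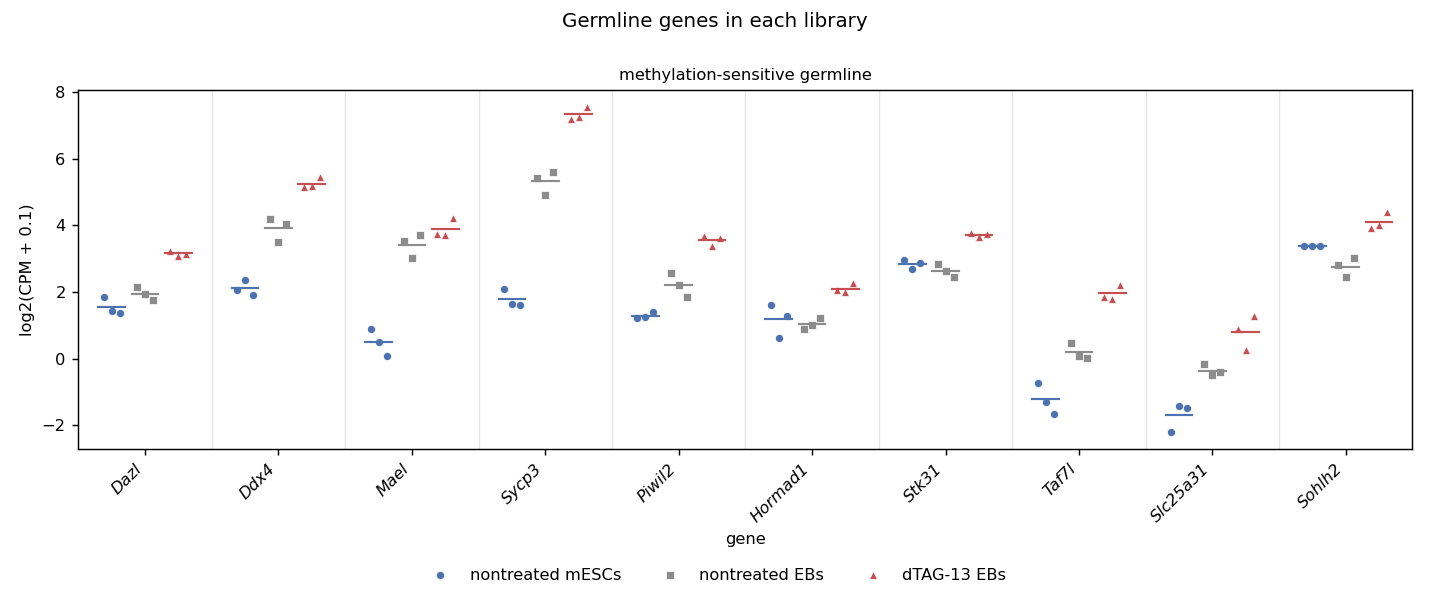
Methylation-sensitive germline genes in each library of the NSD1-dTAG line. Points are libraries, 3 per group, as log2 of CPM plus 0.1, and bars are means of the log values, for nontreated mESCs (circles), nontreated EBs (squares) and dTAG-13 EBs (triangles). Sycp3 rises from 2.95 to 4.14 CPM in mESCs over 30.1 to 48.6 CPM in nontreated EBs to 146 to 188 CPM in dTAG-13 EBs, and for Dazl, Stk31 and Hormad1 the nontreated EBs lie in or near the mESC range.

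The H3K36 and DNA methylation enzyme lists had 1 call between the EB groups, and 3 with the replicate block. Of 9 H3K36 methylation enzyme genes, 3 rose and 0 fell against mESCs, where 34.4% and 27.1% of all genes did. Between EBs 0 were called by edgeR or by DESeq2, and 0 had an unadjusted p below 0.05 in edgeR. In edgeR those shares over all genes were 6.76% and 21.7%, so 0 calls in so short a list say little. Nsd2, the paralogue with the same mark and an overlap with Nelfa, rose from 66.4, 90.7 and 90.5 CPM to 209, 216 and 174, and nontreated EBs overlapped at 208, 229 and 182. Nsd3 rose by 0.62, a call lost without dTAG-13 EB library 1 or 2 (adjusted p up to 0.0736), and Setd2, which adds the third methyl group, was not called (log2 -0.24), but was lower without mESC library 1 (adjusted p = 0.0499). Of 8 DNA methylation enzyme genes 4 rose and 4 fell against mESCs in both EB groups. Tet1 and Tet2, which oxidise methylcytosine, and the maintenance genes Dnmt1 and Uhrf1 fell, with log2 fold changes of -1.87, -4.09, -0.79 and -1.2. The one called between EBs was Dnmt3l, a cofactor of the de novo enzymes, which had 61.3, 57.5 and 42.7 CPM in mESCs, 142, 144 and 141 in nontreated EBs and 91.4, 75.7 and 112 in dTAG-13 EBs (log2 -0.62, adjusted p = 0.034, and at most 0.128 with 1 library left out, that value without nontreated EB library 2). Its exons overlap Aire. With the replicate block Tet2 was also lower (log2 -1.0, adjusted p = 0.0126) and Tet3, another such gene, higher (0.44, adjusted p = 0.0349), and DESeq2 called 2 members lower.

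The machinery that dTAG-13 uses was expressed in every group. Fkbp1a, which encodes FKBP12, had 374, 388 and 451 CPM in dTAG-13 EBs against 500, 372 and 372 in mESCs and was not called. Crbn, which encodes cereblon and overlaps Trnt1, rose by 0.34 (adjusted p = 0.0239), a call lost without any of 5 of the 6 libraries (adjusted p up to 0.0869, without dTAG-13 EB library 2). Of the 6 genes, 3 rose from mESCs, where 34.4% of all genes rose. Between EBs, where edgeR called 6.76% of all genes, edgeR and DESeq2 called 0 of the 6. In edgeR 1 had an unadjusted p below 0.05, Cul4a, a cullin of the ligase, which the replicate block called higher (log2 0.24, adjusted p = 0.0453).

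The steepest rises from mESCs to dTAG-13 EBs were in genes with 0 or 1 counts in mESCs. Car4, a membrane carbonic anhydrase, was at least 2001-fold higher, Cyp26a1, which degrades retinoic acid, at least 556-fold and Mcoln3, a lysosomal channel, at least 472-fold. In CPM Car4 had 60.9, 70.3 and 111 in dTAG-13 EBs and 107, 111 and 144 in nontreated EBs. Of these, Cyp26a1 was called in the direct test, with 13, 17.6 and 36.7 CPM against 117, 181 and 49.5 in nontreated EBs (log2 -2.37, adjusted p = 0.0337). With the replicate block this call was lost (adjusted p = 0.0545), and Car4 was lower (log2 -0.62, adjusted p = 0.0135) and Mcoln3 higher (0.86, adjusted p = 0.0116). Psmb8, an immunoproteasome subunit, was lower too, at 21.1, 22.5 and 20.2 against 40.6, 35.7 and 35.9 CPM (log2 -0.82, adjusted p = 0.00726). Clic5 and Oasl2, also among the 8 steepest rises, had 0 counts in mESCs and overlapped between EB groups. At the other end Trpm1, a cation channel, fell from 58.1, 52 and 49.8 CPM to 0.074, 0.177 and 0.112, and Nkx6-3, a homeobox gene, from 23.5, 21.3 and 18.2 CPM to 1 count in all. Apol6, Serpinb1a, Srarp and Crxos were also among the 8 steepest falls, and these 4 were at or below 0.327 CPM in both EB groups.

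The direct test also named genes outside the lists. The highest under dTAG-13 were Tsga10ip, a testis gene, at 4.15, 4.39 and 5.52 CPM against 0.251, 0.541 and 0.4 in nontreated EBs and 2.63, 2.7 and 2.52 in mESCs, and Gpnmb, a lysosomal glycoprotein, at 9.22, 6.9 and 8.25 against 1.22, 0.778 and 0.763. Lrmp, a membrane protein of the endoplasmic reticulum, had 18.4, 18.8 and 14.5 CPM in dTAG-13 EBs, near the 19, 19.8 and 22.3 of the mESCs, and 1.97, 2.33 and 2.69 in nontreated EBs (direct test log2 2.88, adjusted p = 0.00134). Its exons overlap Casc1. Hormad2, a meiotic axis gene, rose from mESCs with the compound (log2 1.33) and fell without it (-1.18). Cbln4, Aqp6, Zfp783, Ptgir, Nxf3 and Ccdc73 made up the rest of the 10 highest.

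The lowest, besides Cdx2, Evx1, Evx1os and Isl1, were Sprr2a3, Rgs5, Aplnr, Optc, Cd36 and Samd3. Aplnr, the apelin receptor of nascent mesoderm, had 0 counts in mESCs, 27, 64.4 and 10.9 CPM in nontreated EBs and 0.592, 1.38 and 0.0373 in dTAG-13 EBs (log2 -5.65, adjusted p = 0.0127, and 0.0599 without dTAG-13 EB library 1). Rgs5, a pericyte and vessel gene, had 5.23, 8.76 and 0.799 CPM against at most 0.111 with the compound. Sprr2a3 belongs to a family of near-identical genes and its count is uncertain for that reason. Nontreated EB library 3 was the lowest of its group for each of these 6 genes. That the dTAG-13 EBs lay below it in all 6 follows from the naming rule, which took only genes without overlap.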

How the data were processed

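Poly(A) RNA of 9 NSD1-dTAG libraries in 3 groups of 3 was analysed, and the other 6 of the 15 libraries, all wild-type mESCs, entered no comparison. For each library the authors deposited a table of raw, unnormalised counts for 55471 gene IDs and 92 ERCC spike-ins. Per the labels' protocols, libraries came from a strand-specific kit and carried ERCC Mix 1. Tools listed in the submitters' processing notes are STAR (no version), bcl2fastq 2.20.0.422 and DESeq2 1.30.0, with GRCm38.p6 (mm10) as build. Counting settings and the counted strand were not given in the sources used here. Of the IDs, 55230 matched GENCODE M21 (GRCm38), which gave symbols and coordinates, and the other 241 had up to 0.00196% of the counts in a library. Spike-ins were kept out of the library totals and every test.

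Tests used edgeR 4.0.16 under R 4.3.3 (quasi-likelihood F test, TMM, filterByExpr, Benjamini-Hochberg over all genes tested), each comparison on the libraries of its own 2 groups. Alternatives were DESeq2, its size factors in edgeR, no filter on low counts, a replicate block, a gene-length offset, both together, 1 fit over the 9 libraries, each library left out in turn, and no library of highest ribosomal protein share. The last leaves 2 libraries per group. A gene was called at an adjusted p below 0.05. Fold changes are on the log2 scale, and SE is the size of the fold change over the square root of F. CPM use TMM factors over the 9 libraries. Where a group had 0 counts, the bound uses 3 counts over the group, and with 1 to 3 counts the ratio has an exact 95% interval; both cover counting error only. Placing genes with 0 counts at their bounds moved no list median given in the text. The procedure was tested on simulated counts of independent libraries with the same spread for all genes. These held no outlying library and no pairing, so the test does not cover such features of the data. DESeq2 1.42.0 was the other tool, and Python 3.11.15, pandas 2.3.3, numpy 2.4.6, scipy 1.17.1 and matplotlib 3.10.9 made tables and plots. Promoters are from RefSeq (GRCm38.p6, 250 bases before to 50 after the start site), matched by symbol.

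Same-numbered libraries of the EB groups deviated together from their group means (correlations 0.214, 0.247 and 0.366). Libraries 1 and 2 did so across the EB groups as well (0.163 and 0.107), whereas library 3 went against them. Same-numbered libraries of dTAG-13 EBs and mESCs did not all do so (-0.229, 0.117 and -0.246), but dTAG-13 EB library 3 and mESC library 1 did (0.287). The correlations therefore do not show pairing, and the replicate block treats the numbers as pairs without that being known. The labels call libraries of a group biological replicates and say no more of their origin, so the p-values describe the spread of these libraries only, which may be technical.

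The members and the 28 gene lists (292 genes) were chosen with earlier results of these data known. Genes were named by rule: the 8 highest and 8 lowest called fold changes against mESCs and the 10 highest and 10 lowest between EBs, taken among genes that averaged 1 CPM or more, did not overlap between groups and had no clone name; the first 6 members of each list; list members called between EBs; and Pou5f1, Nanog, Sox2, Crbn, Fkbp1a, Nsd3, Nsd2 and Nsd1. Some genes named by this rule are not reported here. Of the 228 genes named by the rule, 63 overlap exons of another gene, and since the counted strand is not stated their counts may include the neighbour's reads.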

Additional observations from a re-analysis of the deposited data

Results flagged for a closer look

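The results in this part rest on the direct test of dTAG-13 EBs against nontreated EBs (edgeR). It shows where the change from mESCs differed between the EB groups. Of 15236 genes tested, 1030 (6.76%) were called, 3.98% higher and 2.78% lower. Among the lists, 9 primitive streak and mesendoderm genes, 6 Wnt and beta-catenin targets, 5 naive pluripotency genes, 5 lateral, cardiac and blood mesoderm genes, 5 epithelial-mesenchymal transition genes and 4 BMP genes were lower under dTAG-13. So were 3 of 8 axial and definitive endoderm genes tested, 3 of 8 paraxial and presomitic genes and 2 of 8 surface ectoderm genes (Tfap2a and Wnt6). Also lower were 1 of 9 trophoblast genes (Cdx2), 1 of 5 neural genes (Pax6) and 2 of 12 ERK targets. So were 1 of 9 LIF targets (Pim1) and 1 of 8 DNA methylation enzyme genes (Dnmt3l). Single calls in lists this short are not read as results about the lists. Higher were 9 methylation-sensitive germline genes. Members went both ways in the core pluripotency list (1 higher, 2 lower), Nodal signalling (1 higher, 2 lower), imprinted genes (2 higher, 3 lower) and cell cycle genes (2 higher, 2 lower), and 3 glycolysis genes were lower.

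A few genes were called in opposite directions from mESCs in the EB groups. The log2 fold change between EBs was 3.53 for Tsga10ip, 2.52 for Hormad2, 1.36 for Sohlh2, -1.29 for Smad6 and -3.44 for Wnt6. Tsga10ip, Hormad2 and Sohlh2 rose with the compound and fell without it, and Smad6 and Wnt6 did the reverse. Tsga10ip, Hormad2 and Sohlh2 were called between EBs in all 6 fits that left out 1 library, whereas Wnt6 reached an adjusted p of 0.0511 without nontreated EB library 1 and Smad6 was called in 2 of the 6 fits, with an adjusted p up to 0.0879.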

How the results depend on the processing

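Both comparisons with mESCs kept their counts within 1.5 times under all 14 alternatives, 8157 to 10338 genes with 1 library left out in place of 9314 for dTAG-13 EBs and 7718 to 10169 in place of 9037 for nontreated EBs. The gene-length offset moved the split for dTAG-13 EBs from 5204 higher and 4110 lower to 5155 and 5300, and the DESeq2 fit, with a median of 0.11 over all genes, called 10304. The direct test between EBs was less stable. Its 1030 calls became 1626 with DESeq2, 1834 with the replicate block, 1809 with the replicate block and gene-length offset, 3233 without the libraries of highest ribosomal share and 182 to 1293 with 1 library left out (184 without dTAG-13 EB library 1, 395 without library 2, 301 and 182 without nontreated EB libraries 1 and 2). Called list members, 71, became 147 without the libraries of highest ribosomal share and 19 to 91 with 1 library left out. The fit without the libraries of highest ribosomal share has 2 libraries per group. The library left out of each group differed most from the others of that group, so the spread is smaller there. Of 89 named genes called between EBs, 24 were called in all 6 fits that left out 1 library. The replicate block ended the calls of Cyp26a1 (adjusted p = 0.0545) and Pim1 (0.051) between EBs and added 20 others. For dTAG-13 EBs against mESCs the numbers are not known to pair libraries either. There the block ended the calls of Bax, Crbn, Eno1 and Etv5 and added Evx1 (log2 -1.49, adjusted p = 0.0248). Setd5 turned from 0.13 to -0.27 in dTAG-13 EBs and from 0.05 to -0.23 in nontreated EBs with the gene-length offset, and Id1 turned from 0.08 to -0.27 between EBs without the libraries of highest ribosomal share. Among tests of named genes under the alternatives, 2736 were unchanged in call and direction, 42 gained and 35 lost a call against mESCs, and 2465, 167 and 237 between EBs. With 3 libraries a group, many calls between EBs were lost when library 1 or 2 of either EB group was left out. Leaving out library 3 of the dTAG-13 or the nontreated EBs gave 1148 and 1293 calls. The cause was not tested.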

Other observations

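Imprinted genes rose in dTAG-13 EBs, 13 of 15 tested with 1 fall and a median log2 fold change of 2.17, and 13 of 16 rose in nontreated EBs (median 2.79). H19, a maternally expressed noncoding RNA, and Igf2, the paternally expressed growth factor beside it, had 0 counts in mESCs and were at least 70.4-fold and 64.1-fold higher in dTAG-13 EBs, where nontreated EBs gave at least 251-fold and 147-fold. H19 stood at 2.74, 2.58 and 3.17 CPM against 10.6, 10.3 and 9.26 in nontreated EBs (log2 -1.83, SE 0.15, adjusted p = 0.00224 by edgeR), a call kept with any 1 library left out. Ndn, a maternally silenced gene of the Prader-Willi region, was lower too (14.3, 17.9 and 16.3 against 24.1, 31.9 and 29.7 CPM). Plagl1, a zinc finger gene of the imprinted network, was the fall from mESCs, from 101, 122 and 138 to 5.89, 7.04 and 5.34 CPM. Cdkn1c, a maternally expressed inhibitor of cyclin-dependent kinases, rose from 9.41, 7.61 and 7.52 CPM to 75.2, 63.9 and 81.2 and was higher than in nontreated EBs by 0.42, with an adjusted p that rounds to the threshold. Impact, a regulator of GCN2, was higher as well (0.41, adjusted p = 0.0348). The 2 higher calls were lost without dTAG-13 EB library 1 or 2 or nontreated EB library 1 or 2, and the 3 lower calls became 1 without dTAG-13 EB library 1 or nontreated EB library 2 and 6 without nontreated EB library 3.

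Genes of growth and metabolism moved in both directions from mESCs, as did all genes tested in dTAG-13 EBs (34.4% higher and 27.1% lower). Of 11 cell cycle genes 3 rose and 5 fell in dTAG-13 EBs. Ccnd2, a D-type cyclin, rose from 2.32, 3.32 and 3.35 CPM to 6.92, 9.34 and 5.9 with dTAG-13 and to 22.9, 38.2 and 24.5 without, and the direct difference of -1.95 (adjusted p = 0.00726) was called with any 1 library left out. Cdkn1b, which encodes the inhibitor p27, was higher by 0.54 between EBs (adjusted p = 0.0234, and at most 0.12 with 1 library left out, that value without nontreated EB library 2). Of 11 glycolysis and hypoxia genes 4 rose and 3 fell, near the shares over all genes. Slc2a1, a glucose transporter, went from 426, 439 and 423 CPM to 1405, 1480 and 1541. Eno1, Pgk1 and Bnip3 were lower between EBs by 0.39, 0.45 and 0.60 on the log2 scale. With 1 library left out, Eno1 was called in 0 of 6 fits, Pgk1 in 1 and Bnip3 in 2, with adjusted p up to 0.146, 0.177 and 0.0962. Among 10 p53 targets 6 rose and 2 fell, with Cdkn1a, the inhibitor p21, at 82.9, 89.3 and 98.7 CPM from 175, 170 and 188. Between EBs, where edgeR called 6.76% of all genes, edgeR and DESeq2 called 0 of these targets, and 1 had an unadjusted p below 0.05 in edgeR. The replicate block called 1 higher, Bbc3 (log2 0.26, adjusted p = 0.0493). Of 12 Hox genes 6 were tested and 4 fell.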
